A study of Mus musculus with 6 samples.

Results

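Cpxm2, Tmem116, 3632451O06Rik, F830016B08Rik, Tmtc1 and Tfpi, 6 genes with no established place in a heart pathway, were followed through the RNA-seq of cardiomyocytes (CMs) that lack carnitine palmitoyltransferase 1b (Cpt1b). These 6 of the 16448 genes in the table were chosen by their measured values in this same comparison, because all 3 values of one group lay on one side of all 3 values of the other and the change was large. Their separation is therefore how they were chosen and is not tested here, and their fold changes are given as descriptions with standard errors. All 6 passed the filter on low values, which left 11364 genes for testing.

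The comparison asks how the transcriptome of CMs differs when Cpt1b, which lets long-chain fatty acids enter mitochondria, is deleted in them. CtrlCre mice (aMHC-Cre pos/+; Cpt1b +/+, n = 3) were compared with Cpt1bcKO mice (aMHC-Cre pos/+; Cpt1b fl/fl, n = 3), all C57BL/6 and aged 8 to 12 weeks, so both groups carried the Cre transgene, whose aMHC promoter is active in CMs from embryonic stages on. CMs came from digested ventricles by perfusion and slow centrifugation and were not sorted. Values are normalized counts, that is, reads per gene divided by a size factor of the sample.

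Cpt1b itself was listed at 1861, 893 and 1443 in CtrlCre CMs and at 211, 353 and 285 in Cpt1bcKO CMs, a log2 fold change of -2.27 (limma adjusted p = 0.00338). The 6 samples held an estimated 14900000 to 24500000 reads on genes, of which mitochondrial-encoded and rRNA genes took 74.8% to 78.1% in CtrlCre CMs and 76.5%, 83.8% and 89.5% in Cpt1bcKO CMs 1, 2 and 3. The summed values of the other genes were 3438589 to 3551692 in CtrlCre CMs and lower, 3146414 to 3315777, in Cpt1bcKO CMs, without overlap. In each group sample 1 had the Xist RNA of females and samples 2 and 3 the Y-linked RNA of males. The 12 CM markers summed to 601985 to 684156 in CtrlCre CMs and 408638 to 615382 in Cpt1bcKO CMs, and 12 fibroblast markers to 540 to 858 and 1187 to 1471, so RNA of other cells was present in both groups. In such bulk samples a smaller number of cells of a type and less RNA per cell cannot be told apart.

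Cpxm2 encodes a secreted member of the M14 family of metallocarboxypeptidases, which trim amino acids from the ends of peptides, and is held to lack that activity itself. Tfpi encodes the Kunitz-type inhibitor that holds back the start of blood clotting at tissue factor, and Tmtc1 an enzyme of the endoplasmic reticulum that attaches mannose to cadherins. 3632451O06Rik, named Armh4 in later annotation, encodes a membrane protein linked to mTORC2 and gp130 signalling. F830016B08Rik lies in a cluster of interferon-inducible GTPases, which defend cells against intracellular parasites, and Tmem116 encodes a membrane protein with little known about its role.

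Cpxm2 and Tmem116 were higher in Cpt1bcKO CMs, and the other 4 genes were lower. At an adjusted p below 0.05 (limma, Benjamini-Hochberg over 11364 genes), 75 genes were higher, which is 0.66% of those tested, and 103 were lower, which is 0.906%. The balance turned to 103 higher and 74 lower when samples were scaled by their sums outside mitochondrial-encoded and rRNA genes, and the total ran from 42 without Cpt1bcKO sample 2 to 329 without Cpt1bcKO sample 1. At an unadjusted p below 0.05, 6.66% of the tested genes were higher and 7.22% lower, 13.9% in all. In 2129 genes, 18.7% of those tested, the 3 values of one group did not overlap those of the other. Of these, 154 changed by at least as much as Tfpi, which had the smallest change of the 6 genes, 85 of them higher and 69 lower in Cpt1bcKO CMs. When the mean also had to reach 50, 54 such genes were found, 26 higher and 28 lower, so the 6 genes are a selection from these and not the whole of them. Among non-overlapping genes whose mean reached 50, the next below Tfpi by size of change was Prune2, at 1412, 2330 and 1347 in CtrlCre CMs and 3250, 5670 and 5194 in Cpt1bcKO CMs (log2 fold change 1.48).

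**Figure D1:**
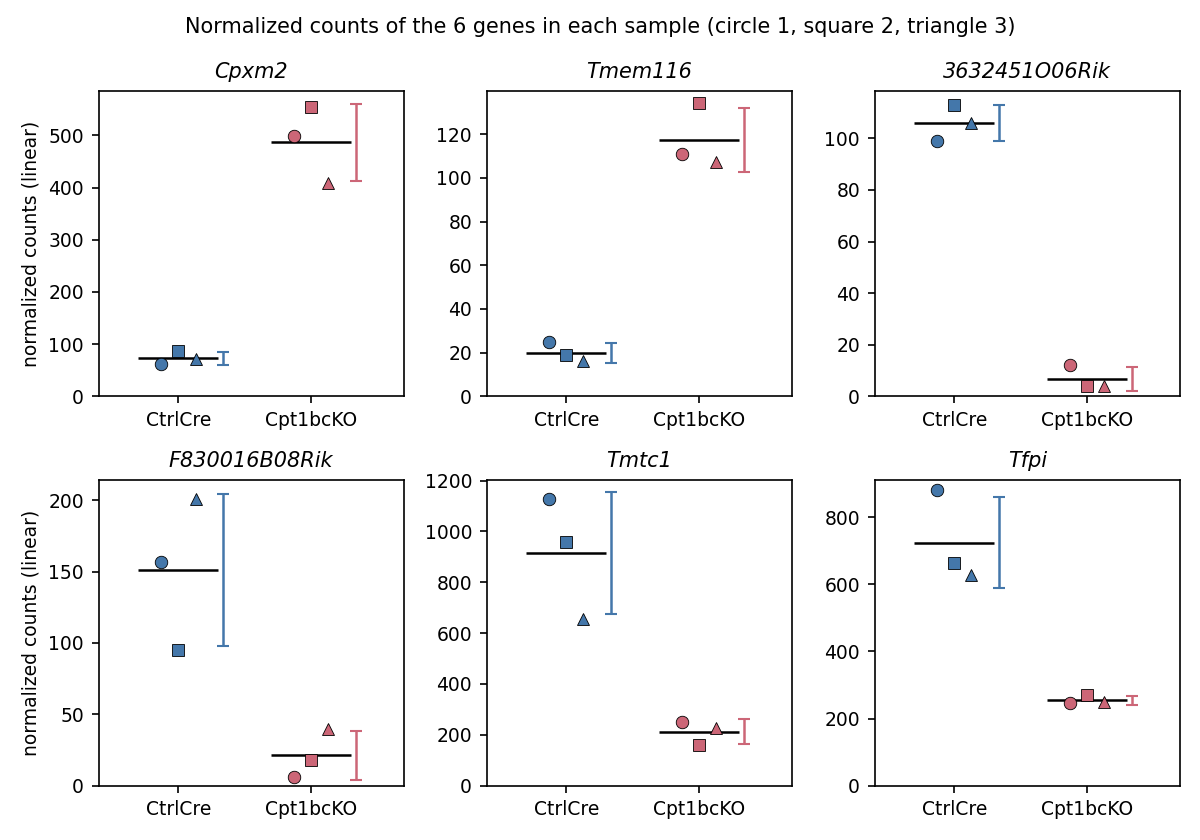
Normalized counts (linear axis from 0) of the 6 genes in the 3 CtrlCre (blue) and 3 Cpt1bcKO (red) samples, with the sample number as marker shape; black lines are group means and error bars are SD (n = 3). In each panel the groups do not overlap, which is how the genes were chosen; the widest relative spread is that of F830016B08Rik in Cpt1bcKO CMs, with 6, 18 and 40.

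Cpxm2 (ENSMUSG00000030862) was listed at 62, 87 and 71 in CtrlCre CMs and at 499, 554 and 408 in Cpt1bcKO CMs. The lowest Cpt1bcKO value was 4.69 times the highest CtrlCre value, and the spread within each group was small, with coefficients of variation of 17.3% and 15.1%. Its mean was 73.3 ± 12.7 in CtrlCre and 487 ± 73.7 in Cpt1bcKO CMs (SD, n = 3 each), a ratio of 6.64 and a log2 fold change of 2.72 (SE 0.191). Among the tested genes 13 had a larger increase, 12 of them without overlap of the groups. Per kilobase of exon and per 1000000 normalized counts outside mitochondrial-encoded and rRNA genes, its level went from 4.56 to 32.7, which took it from the 50th to the 90.9th percentile of the tested genes.

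Cpxm2 spans 112 kb on the minus strand of chromosome 7 (chr7:132042816-132154739, GRCm38), and the 300 bases around its start (chr7:132154692-132154991, RefSeq, GRCm38.p6), read 5′ to 3′ from 250 bases before to 50 after the start, are shown because it had the largest increase of the 6 genes. Capitals mark the GC box GGGCGG on either strand, with overlapping matches counted separately.
Cpxm2: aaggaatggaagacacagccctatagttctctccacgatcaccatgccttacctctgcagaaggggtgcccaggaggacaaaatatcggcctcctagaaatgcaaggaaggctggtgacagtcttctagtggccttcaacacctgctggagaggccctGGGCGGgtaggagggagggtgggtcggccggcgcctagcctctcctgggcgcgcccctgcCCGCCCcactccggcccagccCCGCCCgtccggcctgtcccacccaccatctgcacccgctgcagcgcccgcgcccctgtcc
The window holds 3 GC boxes, all before the start, 17 CpG dinucleotides and 66.0% G and C, against a median of 52.7% over the 32851 windows in the RefSeq table. A GC box is found in 35.7% of those windows. Other motifs were searched in the same way and not found in this window. They were the TATA box (letters TATAAA), present in 13.6% of all windows, the box with the letters CCAAT, in 37.4%, the core of hypoxia response elements (letters ACGTG, with GCGTG also taken), in 43.8%, and a binding motif of nuclear receptors (letters AGGTCA), in 16.3%.

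Of the exon bases of Cpxm2, 7.59% are also exon of Gm15677, an antisense gene at its start for which no values were analysed here. Of the 75-base stretches of its transcripts, as long as 1 read, 281 of 4615 (6.09%) occur in Gm15677, all on the opposite strand. Whether the counting used the strand is not given in the sources used here. n-R5s159, an rRNA copy inside Cpxm2 on the opposite strand, was listed at 0, 1 and 0 in CtrlCre and 0, 4 and 9 in Cpt1bcKO CMs. The next gene upstream, Chst15, an enzyme that sulfates chondroitin, was listed at 36, 52 and 53 in CtrlCre and 61, 83 and 62 in Cpt1bcKO CMs and did not pass the test (log2 fold change 0.54, limma adjusted p = 0.363).

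Of 22 M14 carboxypeptidases and related genes listed for Cpxm2, 10 were in the table and 8 were tested. None passed the test of limma at an adjusted p below 0.05, and at an unadjusted p below 0.05 there were 0 higher and 1 lower of 8, beside 13.9% over all tested genes. Their median log2 fold change was 0.21, beside -0.0013 over all tested genes, with 4 above and 4 below 0, and it was -0.19 with only the genes at 10 or more in every sample and -0.02 without Cpt1bcKO sample 3. Agtpbp1, which shortens the polyglutamate tails of tubulin, was listed at 1720, 1213 and 1085 in CtrlCre CMs and 797, 573 and 758 in Cpt1bcKO CMs (log2 fold change -0.90, limma adjusted p = 0.0567). It passed in 5 of 15 alternatives, among them the fits with no filter on low values (limma adjusted p = 0.0395), with 10 or more in every sample (0.0475), without Cpt1bcKO sample 1 (0.0318) and with sex as covariate (0.00373). Cpd, a carboxypeptidase of the trans-Golgi network, had 664, 729 and 674 against 538, 647 and 632 (limma adjusted p = 0.591).

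The summed level of markers of fibroblasts, which secrete matrix proteins, was also higher in all Cpt1bcKO samples, with 1187 to 1471 against 540 to 858. All 12 were in the table, 11 were tested, 2 of them were higher (Col1a1 and Lum, limma adjusted p = 0.0143 each), beside 0.66% over all tested genes, 0 were lower, and their median log2 fold change was 1.11. Col1a1, a fibrillar collagen chain, was listed at 45, 69 and 64 in CtrlCre and 162, 141 and 141 in Cpt1bcKO CMs. Lum, a collagen-binding proteoglycan, was listed at 30, 26 and 23 in CtrlCre and 81, 66 and 75 in Cpt1bcKO CMs. Pdgfra and Tcf21, which define fibroblasts, were at 67, 75 and 66 against 115, 92 and 85, and at 5 in each CtrlCre sample against 14, 4 and 16. No fibroblast marker was at 0 in all samples. The part of fibroblast RNA in the change of Cpxm2 was not tested. The 14 endothelial markers summed to 1683, 3251 and 3519 in CtrlCre and 3747, 3835 and 3261 in Cpt1bcKO CMs. The 8 smooth muscle and pericyte markers summed to 619, 1628 and 2015 against 1611, 1518 and 1105. Both sums were lowest in CtrlCre sample 1, and neither list had a gene past the test of limma.

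Tmem116 (ENSMUSG00000029452) was listed at 25, 19 and 16 in CtrlCre CMs and at 111, 134 and 107 in Cpt1bcKO CMs. These values correspond to 26, 21 and 17 reads in CtrlCre CMs and 163, 135 and 83 reads in Cpt1bcKO CMs, so the gene was near the low end of what was counted in controls. Its mean was 20 ± 4.58 in CtrlCre and 117 ± 14.6 in Cpt1bcKO CMs (SD, n = 3 each), a ratio of 5.87 and a log2 fold change of 2.51 (SE 0.248). The lowest Cpt1bcKO value was 4.28 times the highest CtrlCre value. Among the tested genes 20 had a larger increase. Its level per kilobase of exon went from 1.53 to 9.75, from the 19.3rd to the 69.9th percentile.

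Tmem116 spans 72.3 kb on the plus strand of chromosome 5 (chr5:121451893-121524183, GRCm38) and runs against several genes of the other strand. RefSeq has 2 start windows for it, of which the first (chr5:121452459-121452758, GRCm38.p6) is shown because it is shared with Erp29, a chaperone of the endoplasmic reticulum, whose annotated start lies within it, 203 bases before the first of Tmem116. Capitals mark GC boxes and hypoxia response cores on either strand.
Tmem116: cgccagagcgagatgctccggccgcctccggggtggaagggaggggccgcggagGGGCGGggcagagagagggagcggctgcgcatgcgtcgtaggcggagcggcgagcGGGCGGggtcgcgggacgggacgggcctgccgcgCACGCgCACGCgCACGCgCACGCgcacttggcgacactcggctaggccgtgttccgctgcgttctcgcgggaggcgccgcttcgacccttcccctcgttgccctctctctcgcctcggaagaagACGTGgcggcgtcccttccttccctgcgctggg
This first window holds 48 CpG dinucleotides, 75% G and C, 2 GC boxes and 5 hypoxia response cores, 4 of which follow each other in a short repeat. The second window (chr5:121462931-121463230) has 53.3% G and C, 1 CpG dinucleotide and no match to any of the motifs searched. A match of these letters is a description of the window and was not tied to any factor.

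Erp29, which starts in the same window, was listed at 93, 69 and 111 in CtrlCre CMs and 109, 63 and 100 in Cpt1bcKO CMs, with fully overlapping groups (log2 fold change -0.02, limma adjusted p = 0.985). Of the 13 listed genes that overlap Tmem116 or lie within 100 kb, 7 were tested and none passed the limma test at an adjusted p below 0.05, while at an unadjusted p below 0.05 there were 1 higher and 1 lower, beside 13.9% over all tested genes. Adam1b, a testis metalloprotease gene inside an intron of Tmem116 on the opposite strand, was listed at 3, 10 and 14 in CtrlCre and 14, 65 and 74 in Cpt1bcKO CMs. The groups touched at 14, and its log2 fold change of 2.27 (SE 0.666) did not pass the test (limma adjusted p = 0.155), but passed without Cpt1bcKO sample 1 (log2 fold change 3.01, limma adjusted p = 0.0164) and with sex as covariate (0.00415), and the log2 fold change was 1.71 without CtrlCre sample 1. Adam1a, its neighbour, was listed at 5, 8 and 6 against 6, 22 and 19, and 4930477O15Rik at 1, 3 and 0 against 2, 11 and 9, both too low to be tested. In these 3 genes Cpt1bcKO samples 2 and 3 were high and sample 1 was not, whereas Tmem116 was high in all 3.

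The gene models of this locus share sequence. Of the exon bases of Tmem116, 27.5% are also exon on the opposite strand, 848 of them in Adam1a and 180 in Erp29, and 885 of 3967 (22.3%) of its 75-base stretches occur in those genes or in Gm42878. The part of such reads in the change of Tmem116 was not tested. Aldh2, the mitochondrial aldehyde dehydrogenase, was listed at 497, 415 and 461 in CtrlCre and 318, 278 and 256 in Cpt1bcKO CMs, without overlap, and did not pass the test (log2 fold change -0.69, limma adjusted p = 0.0591), but passed without Cpt1bcKO sample 1 (limma adjusted p = 0.0328) and with sex as covariate (0.00853). Hectd4, a ubiquitin ligase gene upstream, had 222, 325 and 285 against 221, 340 and 405 (limma adjusted p = 0.773). Naa25, 9.48 kb upstream, had 174, 170 and 149 against 177, 180 and 189, also without overlap (log2 fold change 0.15, limma adjusted p = 0.73).

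3632451O06Rik (ENSMUSG00000036242) had the largest fall of all 11364 tested genes, as no other had a lower log2 fold change. It was listed at 99, 113 and 106 in CtrlCre CMs and at 12, 4 and 4 in Cpt1bcKO CMs. The controls lay close together, with a coefficient of variation of 6.60%, and the lowest of them was 8.25 times the highest Cpt1bcKO value, the widest gap among the 6 genes. Its mean was 106 ± 7 in CtrlCre and 6.67 ± 4.62 in Cpt1bcKO CMs (SD, n = 3 each), a ratio of 15.9, and its log2 fold change was -3.96 (SE 0.395). On the log2(value + 1) scale a fold change understates the difference of values this low, and with a pseudocount of 5 it was -3.32. The Cpt1bcKO values stand for 17 to 18, 4 and 3 reads, against 103, 124 and 115 in CtrlCre CMs. Per kilobase of exon its level went from 3.28 to 0.225, from the 40.2nd to the 0.212th percentile of the tested genes.

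The gene spans 102 kb on the minus strand of chromosome 14 (chr14:49681560-49783383, GRCm38), and no listed gene overlaps it or lies within 100 kb. No exon base is shared with another gene in GENCODE vM21, and 31 of 9269 (0.334%) of its 75-base stretches occur elsewhere, in Gm8417. The window around its start (chr14:49783334-49783633, RefSeq entry Armh4, GRCm38.p6) is shown because this gene had the largest fall. Capitals mark the CCAAT box and the hypoxia response cores.
3632451O06Rik: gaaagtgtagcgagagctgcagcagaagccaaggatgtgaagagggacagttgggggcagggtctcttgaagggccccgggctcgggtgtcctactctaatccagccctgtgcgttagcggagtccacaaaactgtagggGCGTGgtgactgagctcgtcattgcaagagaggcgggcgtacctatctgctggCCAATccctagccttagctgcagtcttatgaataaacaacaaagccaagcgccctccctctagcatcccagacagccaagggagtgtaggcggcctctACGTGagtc
The window holds 12 CpG dinucleotides, 57.3% G and C, 1 CCAAT box before the start and 2 hypoxia response cores, 1 before and 1 after the start.

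Of 18 genes listed for mTORC2 and gp130 signalling, 16 were in the table and 15 were tested, of which 1 was higher, 0 were lower and 14 did not pass the limma test, beside 0.66% higher and 0.906% lower over all tested genes. At an unadjusted p below 0.05 there were 2 higher and 2 lower of 15, beside 13.9% over all tested genes. Their median log2 fold change was -0.09, and it was 0.01 without Cpt1bcKO sample 1. Mtor, the kinase of both mTOR complexes, was listed at 380, 489 and 458 in CtrlCre CMs and 793, 1016 and 809 in Cpt1bcKO CMs, without overlap. Its log2 fold change was 0.98 (SE 0.161, limma adjusted p = 0.0151). The call was lost without CtrlCre sample 1 (0.0542), CtrlCre sample 3 (0.064) or Cpt1bcKO sample 2 (0.0991). Rictor and Mapkap1, the subunits that set mTORC2 apart, had 181, 191 and 181 against 149, 203 and 170, and 206, 185 and 183 against 220, 187 and 149, and both groups overlapped. Il6st, which encodes gp130, had 952, 953 and 878 against 1136, 1074 and 987, without overlap (log2 fold change 0.20, limma adjusted p = 0.548). At an unadjusted p below 0.05 the 2 higher genes were Mtor and Sgk1, and the 2 lower were Socs3 and Lifr. Socs3 had 490, 154 and 190 against 142, 88 and 72 (log2 fold change -1.32, limma adjusted p = 0.162). Lifr had 384, 479 and 471 against 296, 328 and 364 (log2 fold change -0.43, limma adjusted p = 0.25). The groups overlapped in Sgk1 and not in Socs3 or Lifr.

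Tfpi (ENSMUSG00000027082) had the smallest change of the 6 genes and the evenest Cpt1bcKO values. It was listed at 880, 665 and 628 in CtrlCre CMs and at 245, 270 and 250 in Cpt1bcKO CMs. Its mean was 724 ± 136 in CtrlCre and 255 ± 13.2 in Cpt1bcKO CMs (SD, n = 3 each), with coefficients of variation of 18.8% and 5.19%. The log2 fold change was -1.49 (SE 0.164), a ratio of 2.84, and 80 tested genes had a larger decrease, 68 of them without overlap. Per kilobase of exon its level went from 38.0 to 14.5, from the 92.3rd to the 79.1st percentile. The 14 endothelial markers, all in the table, summed to 1683, 3251 and 3519 in CtrlCre and 3747, 3835 and 3261 in Cpt1bcKO CMs. CtrlCre sample 1, in which Tfpi was highest, stood apart with the lowest sum. The median of the log2 fold changes of these markers, 0.36, includes that sample. The part of endothelial RNA in the values of Tfpi was not tested.

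Tfpi spans 43.9 kb on the minus strand of chromosome 2 (chr2:84432855-84476775, GRCm38) and overlaps no other gene in GENCODE vM21, and 0 of 5622 of its 75-base stretches occur in another gene. Its first RefSeq window (chr2:84476710-84477009, GRCm38.p6) is shown because it differs from the other windows shown in base composition, with 48.0% G and C and 5 CpG dinucleotides. Capitals mark the TATA box and the GC box, both of which match on the opposite strand and so are printed in reverse complement, and the hypoxia response core, whose letters overlap on both strands in the palindrome near the end.
Tfpi: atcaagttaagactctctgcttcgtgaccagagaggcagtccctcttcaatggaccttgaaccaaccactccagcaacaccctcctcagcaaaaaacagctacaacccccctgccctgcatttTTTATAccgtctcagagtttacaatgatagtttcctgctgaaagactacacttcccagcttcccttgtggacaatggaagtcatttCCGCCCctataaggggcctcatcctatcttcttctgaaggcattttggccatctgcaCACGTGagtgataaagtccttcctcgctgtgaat
The only match to the TATA box letters TATAAA faces away from the gene and lies 127 bases before the annotated start. Other forms of this box were not searched. Calcrl, the receptor gene of adrenomedullin that lies 7.44 kb downstream, was listed at 74, 162 and 176 in CtrlCre CMs and 140, 163 and 160 in Cpt1bcKO CMs (log2 fold change 0.26, limma adjusted p = 0.746), and its log2 fold change turned to -0.13 without CtrlCre sample 1.

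Of 33 listed genes of the tissue factor pathway and of fibrinolysis, 18 were in the table and 13 were tested. None passed the limma test at an adjusted p below 0.05, and 1 was higher and 1 lower of 13 at an unadjusted p below 0.05, beside 13.9% over all tested genes. The median log2 fold change was 0.07, but -0.09 without CtrlCre sample 1, -0.04 without CtrlCre sample 2, 0.12 without Cpt1bcKO sample 2 and 0.18 when scaled by the sums outside mitochondrial-encoded and rRNA genes. F3, the tissue factor that Tfpi inhibits together with factor VIIa, was listed at 69, 47 and 64 in CtrlCre CMs and 53, 52 and 80 in Cpt1bcKO CMs (log2 fold change 0.03, limma adjusted p = 0.975). Gas6, a ligand of TAM receptors that depends on vitamin K, had 316, 250 and 309 against 287, 280 and 252, a log2 fold change of -0.09 (limma adjusted p = 0.846). Anxa5, which binds phosphatidylserine and shields it from clotting factors, was listed at 134, 134 and 159 in CtrlCre and 323, 267 and 211 in Cpt1bcKO CMs. These groups did not overlap, and the log2 fold change of 0.89 did not pass the test (limma adjusted p = 0.0536). It passed in 8 of 15 alternatives, with limma adjusted p from 0.0146 (sex as covariate) to 0.23 over all of them.

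Tmtc1 (ENSMUSG00000030306) was listed at 1127, 960 and 655 in CtrlCre CMs and at 252, 158 and 228 in Cpt1bcKO CMs. It was the most counted of the 6 genes in controls, and its lowest CtrlCre value was 2.60 times its highest Cpt1bcKO value. Its mean was 914 ± 239 in CtrlCre and 213 ± 48.8 in Cpt1bcKO CMs (SD, n = 3 each), a ratio of 4.30 and a log2 fold change of -2.09 (SE 0.233). Among the tested genes 28 had a larger decrease, 25 of them without overlap. Per kilobase of exon its level went from 30.5 to 7.69, from the 90.3rd to the 63.3rd percentile.

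The gene spans 212 kb on the minus strand of chromosome 6 (chr6:148232430-148444389, GRCm38), shares no exon base with another gene, and 0 of 8648 of its 75-base stretches occur in one. Inside its introns lie 3 listed genes, of which Gm44021 and Gm44022 are transcript models of the same strand that await experimental support. Gm44021 was listed at 18, 43 and 52 in CtrlCre CMs and 5, 7 and 13 in Cpt1bcKO CMs, without overlap. Its log2 fold change of -2.01 (SE 0.488), close in size to that of Tmtc1, did not pass the test (limma adjusted p = 0.0803), but passed with sex as covariate (0.0123). Gm44022 was listed at 18, 54 and 99 against 8, 19 and 50, with overlap (log2 fold change -1.17, limma adjusted p = 0.475), and its log2 fold change ran from -1.82 without CtrlCre sample 1 to -0.56 without Cpt1bcKO sample 1. Rps4l, on the opposite strand, had 24, 20 and 20 against 26, 21 and 22 (limma adjusted p = 0.915). Outside the gene, Ergic2, 20.1 kb downstream, had 219, 181 and 182 against 224, 158 and 162 (log2 fold change -0.11, limma adjusted p = 0.84). The part of unspliced Tmtc1 RNA in the values of the intron models was not tested.

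Of 24 listed O-mannosyltransferases and cadherins, 19 were in the table and 18 were tested, of which 1 was higher, 2 were lower and 15 did not pass the limma test, with a median log2 fold change of -0.13. With 1 sample left out the median ran from -0.29 (without CtrlCre sample 1) to 0.08 (without CtrlCre sample 3), and it was also above 0 without Cpt1bcKO sample 3 (0.02). Over all tested genes, 0.66% were higher and 0.906% lower. The 3 genes that passed were cadherins or protocadherins, which make up most of the list, and they did not change in the same direction. Cdh2, the cadherin of the intercalated disc, was listed at 2413, 1940 and 2207 in CtrlCre CMs and 1401, 1243 and 1159 in Cpt1bcKO CMs (log2 fold change -0.78, limma adjusted p = 0.0237). Pcdh7, a protocadherin, was listed at 1928, 2267 and 1840 against 857, 1062 and 1231 (log2 fold change -0.95, limma adjusted p = 0.0203). Cdh4, a classical cadherin of other tissues, was listed at 7, 27 and 9 against 73, 64 and 65 (log2 fold change 2.38, limma adjusted p = 0.0236).

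Over all alternatives the log2 fold changes ran from -0.87 to -0.67 for Cdh2, -1.07 to -0.81 for Pcdh7 and 2.03 to 2.93 for Cdh4. Each of these 3 calls was lost in some fits with 1 sample left out. That of Cdh2 was lost without any 1 sample other than Cpt1bcKO sample 1, with limma adjusted p up to 0.146 without Cpt1bcKO sample 2, and also when samples were scaled by their sums outside mitochondrial-encoded and rRNA genes (0.0546). That of Pcdh7 was lost without CtrlCre sample 1, 2 or 3 (0.0545, 0.093 and 0.0648) or Cpt1bcKO sample 2 (0.105). That of Cdh4 was lost without CtrlCre sample 1 or 3 (0.0633 and 0.0975) or Cpt1bcKO sample 2 or 3 (0.127 and 0.0675). The enzymes of the same family did not pass the test, with Tmtc3 at 95, 126 and 111 against 96, 125 and 84 (limma adjusted p = 0.83) and Tmtc2 at 23, 41 and 40 against 35, 45 and 31 (limma adjusted p = 0.899). Tmtc4 had 34, 26 and 26 against 14, 20 and 28 (limma adjusted p = 0.566).

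F830016B08Rik (ENSMUSG00000090942) was listed at 157, 95 and 201 in CtrlCre CMs and at 6, 18 and 40 in Cpt1bcKO CMs. It was the most variable of the 6 genes, with coefficients of variation of 35.3% and 80.8%, and the lowest CtrlCre value was 2.38 times the highest Cpt1bcKO value. Its mean was 151 ± 53.3 in CtrlCre and 21.3 ± 17.2 in Cpt1bcKO CMs (SD, n = 3 each), a ratio of 7.08, and its log2 fold change was -3.04 (SE 0.542), or -2.38 without Cpt1bcKO sample 1 and -3.65 without Cpt1bcKO sample 3. The Cpt1bcKO values stand for 9, 18 and 31 reads. Among the tested genes 8 had a larger decrease. Per kilobase of exon its level went from 13.1 to 1.98, from the 77.8th to the 21.5th percentile.

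The gene is short, 9.64 kb on the plus strand of chromosome 18 (positions 60293380 to 60303016, GRCm38), and shares no exon base with another gene, while 29 of 3223 (0.90%) of its 75-base stretches occur in others. Of 15 tested neighbours of all 6 genes 1 was called, against 0.906% lower among all tested genes, and it lies here. With sex as covariate Adam1b and Aldh2 near Tmem116 and Gm44021 within Tmtc1 were called as well, in a fit that called 243 higher and 331 lower of all 11364 genes. That neighbour, Iigp1, a GTPase that attacks the vacuoles of intracellular parasites, lies 73.0 kb away on the same strand. It was listed at 421, 207 and 216 in CtrlCre CMs and 39, 45 and 82 in Cpt1bcKO CMs, and its log2 fold change was -2.32 (SE 0.331, limma adjusted p = 0.00906). The call was lost without Cpt1bcKO sample 2 (adjusted p = 0.0591 by limma). The 2 nearer genes of the cluster were too low for the test, Gm4841 at 54, 2 and 11 against 0, 0 and 5, and Gm4951 at 9, 0 and 4 against 2, 0 and 0. In Iigp1 and Gm4841 CtrlCre sample 1 was the highest, and in F830016B08Rik it was CtrlCre sample 3.

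**Figure D2:**
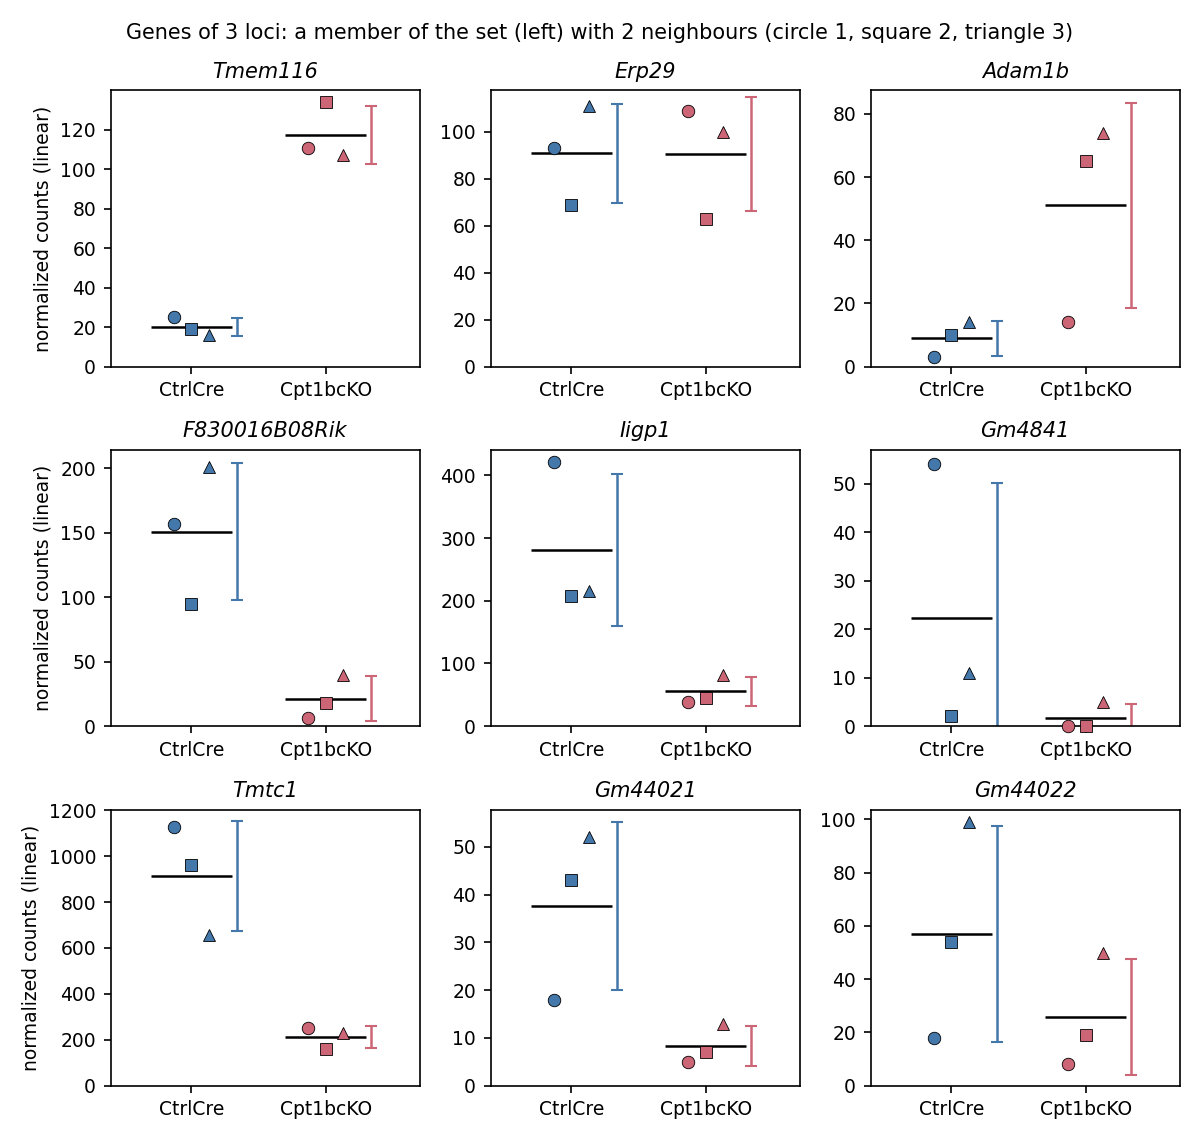
Normalized counts (linear axes from 0) at 3 loci, with a gene of the set at the left of each row and a pair of genes overlapping or neighbouring it to the right; blue is CtrlCre, red Cpt1bcKO, lines are means and bars SD (n = 3, cut at 0), and marker shapes give the sample number. Erp29 overlaps fully between the groups while Tmem116 does not, Iigp1 falls from 207 or more to 82 or less beside F830016B08Rik, and Gm44021 is lower without overlap within Tmtc1.

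Of 27 listed interferon-inducible GTPases, 23 were in the table and 16 were tested, of which 0 were higher and 1, Iigp1, was lower in the limma test. At an unadjusted p below 0.05 there were 1 higher and 4 lower of 16, beside 6.66% and 7.22% over all tested genes, and the median log2 fold change was -0.34, or -0.14 without CtrlCre sample 3. Igtp, a GTPase of the same immunity-related family, had 98, 27 and 65 in CtrlCre CMs and 12, 21 and 30 in Cpt1bcKO CMs (log2 fold change -1.46, limma adjusted p = 0.195). Irgm1, a regulator of that family, had 127, 80 and 79 against 59, 49 and 67 (log2 fold change -0.67, limma adjusted p = 0.25). Gbp2b, a guanylate-binding protein, went the other way, with 19, 15 and 0 against 41, 32 and 43, and did not pass the test (limma adjusted p = 0.253).

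Of 25 listed genes of interferon signalling, 24 were in the table and 19 were tested. None passed the limma test at an adjusted p below 0.05, and 0 were higher and 4 lower of 19 at an unadjusted p below 0.05, beside 6.66% and 7.22% over all tested genes. Their median log2 fold change was -0.30, with 3 above and 16 below 0, and it was -0.19 when scaled by the sums outside mitochondrial-encoded and rRNA genes, which moved the median of all genes to 0.11. Irf7, a transcription factor induced by interferon, was listed at 18, 22 and 19 in CtrlCre and 8, 8 and 1 in Cpt1bcKO CMs (log2 fold change -1.92, limma adjusted p = 0.195). The most counted genes, the receptor kinase Jak1 and the receptor chain Ifngr2, had limma adjusted p of 0.953 and 0.595. The immune cell markers, 9 of 12 in the table, summed to 135 to 236 in CtrlCre and 176 to 208 in Cpt1bcKO CMs, and their part in these values was not tested.

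**Figure D3:**
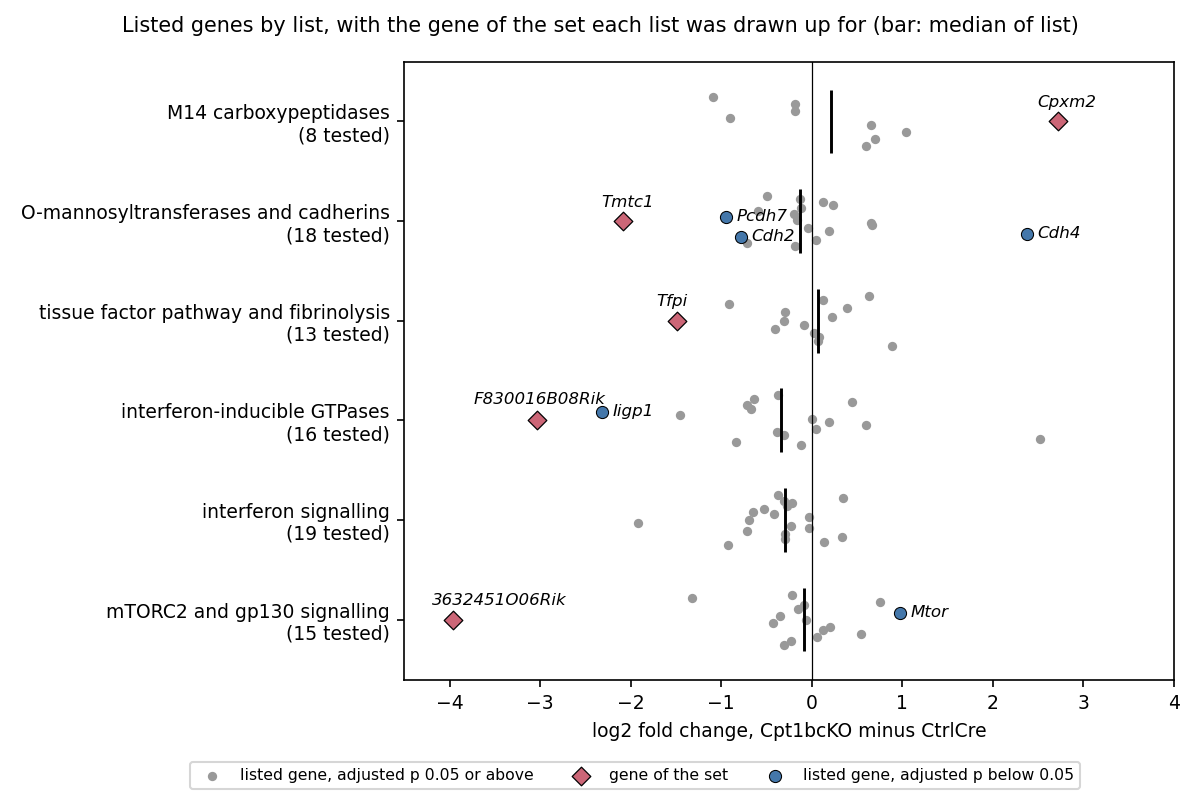
Log2 fold changes (Cpt1bcKO minus CtrlCre, horizontal axis) of the tested genes of 6 lists, 1 row per list, with the vertical bar at the median and the gene of the set that the list was drawn up for as a red diamond. The medians lie between -0.34 and 0.21, and 5 listed genes (blue) passed an adjusted p of 0.05, of which Iigp1 at -2.32 and Cdh4 at 2.38 changed most.

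Seen together on a scale per kilobase of exon, the order of the 6 genes differed between the groups. Exon lengths are those of GENCODE vM21, in which the ends of Cpxm2 and 3632451O06Rik differ from the table, so their levels and percentiles depend on that annotation. In CtrlCre CMs the order ran from Tfpi (38.0) over Tmtc1 (30.5), F830016B08Rik (13.1), Cpxm2 (4.56) and 3632451O06Rik (3.28) to Tmem116 (1.53). In Cpt1bcKO CMs it ran from Cpxm2 (32.7) over Tfpi (14.5), Tmem116 (9.75), Tmtc1 (7.69) and F830016B08Rik (1.98) to 3632451O06Rik (0.225). The SD ranges of Tfpi and Tmtc1 overlapped in CtrlCre CMs, with coefficients of variation of 18.8% and 26.2%. Those of Tmem116 and Tmtc1 overlapped in Cpt1bcKO CMs, with coefficients of variation of 12.4% and 23.0%.

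**Figure D4:**
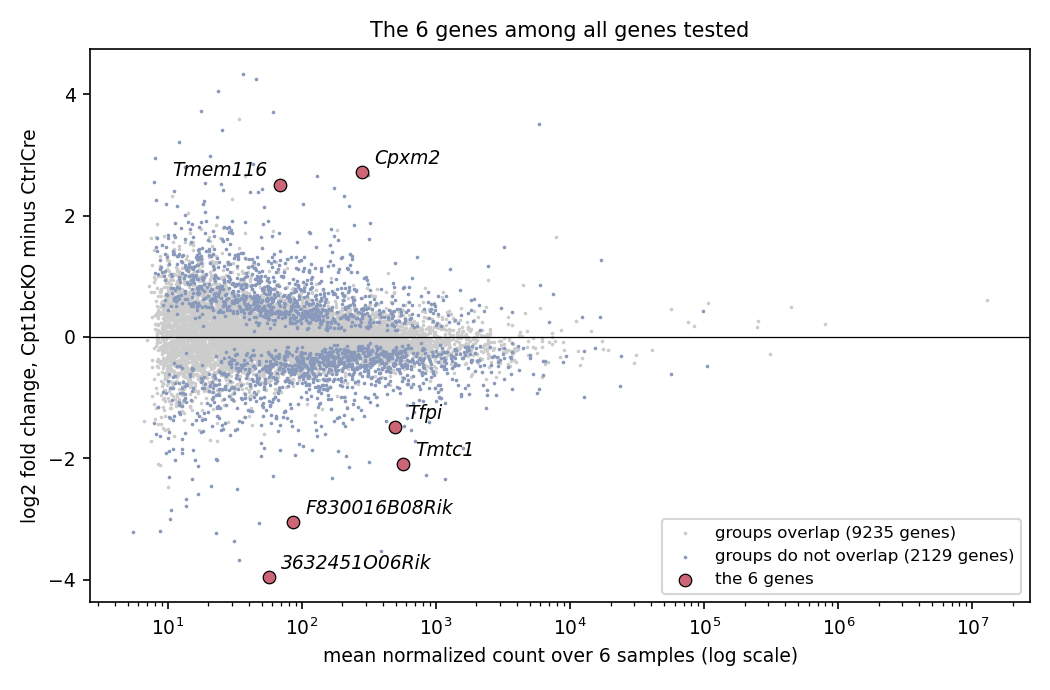
Log2 fold change (Cpt1bcKO minus CtrlCre) of all 11364 tested genes against their mean normalized count over the 6 samples (log axis), with the 2129 genes whose groups do not overlap in blue-grey and the 6 genes in red. The 6 genes lie at the edge of the cloud for their mean, which is how they were chosen, with 3632451O06Rik lowest of all at -3.96.

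The genes most like each of the 6 in pattern were found by Pearson's r of log2(value + 1) over the 6 samples among the 6791 tested genes whose mean reached 50. With 2 groups of 3 any gene that differs between the groups correlates with these, and 50 to 89 genes passed 0.95 for each of them, so the values are descriptions. For Cpxm2 the nearest was Tecpr1, an autophagy protein that binds lysosomal membranes (r = 0.9973), listed at 77, 86 and 84 in CtrlCre and 535, 624 and 441 in Cpt1bcKO CMs, followed by mt-Nd3 of complex I (r = 0.9937). For Tmem116 it was Acsf2, a mitochondrial acyl-CoA synthetase (r = 0.9932), at 111, 117 and 90 against 383, 403 and 355, followed by Klhdc7a (r = 0.9927). For 3632451O06Rik it was the membrane protein Tmem47 (r = 0.9959), at 130, 139 and 149 against 57, 44 and 43, followed by Rcor3, a corepressor (r = 0.9893).

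For F830016B08Rik the nearest genes were H3f3b, which encodes histone H3.3 (r = 0.9978), at 335, 312 and 350 in CtrlCre and 226, 250 and 283 in Cpt1bcKO CMs, and the receptor gene Lrp4 (r = 0.9947). For Tmtc1 they were Fhl2, a LIM protein of the sarcomere (r = 0.9955), at 3681, 3189 and 2895 against 1543, 1284 and 1504, and Lclat1, an acyltransferase of cardiolipin (r = 0.9947). For Tfpi they were Ppp6r3, a subunit of protein phosphatase 6 (r = 0.9951), at 751, 662 and 686 against 503, 516 and 500, and Prepl, a peptidase (r = 0.9944). A high r does not mean an equal change, as the range of H3f3b was narrow beside that of F830016B08Rik.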

How the data were processed

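CMs of 6 mice (CtrlCre, n = 3, and Cpt1bcKO, n = 3) were analysed by RNA-seq of total RNA with single-end reads of 75 bases. Per the study's methods and the submitters' processing notes, the authors trimmed reads with Trimmomatic 0.36, aligned them with STAR 2.5.4b to mm10 (GRCm38.p5), counted them with featureCounts 1.6.0, without those that fell on more than 1 gene or region, and scaled the counts by size factors of DESeq2 1.14.1. The deposited value is treated as a score, since the authors had rounded these scaled counts, and no count test was used. The authors' columns of means, fold changes and p-values were not used. Groups and sample numbers came from the titles. That p-values cover the spread between mice rests on each sample being 1 mouse.

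Values were transformed to log2(value + 1), and genes that reached 10 in 3 or more samples were fitted with limma 3.58.1 in R 4.3.3 (lmFit, eBayes with a trend), with Benjamini-Hochberg adjustment over 11364 genes. The fit was tested on simulated data. The worth of 1 read, read from the spacing of low values, was 0.682 to 1.29 and gave the read numbers. Exon lengths and overlaps came from GENCODE vM21 (99.9% of genes matched), and promoter windows from RefSeq. The search for windows of the 6 genes left out chromosome 18, where F830016B08Rik lies, so windows were read for 5 of them. Beside the 6 genes and Cpt1b, the text names listed genes that overlap them and, within 100 kb and in each list, the called genes or, with none, the 2 with the highest mean, and the 2 most alike in pattern. Other listed and marker genes were named after their values were seen. The members, lists and tests were chosen with earlier results of these data known. Alternatives were pseudocounts of 0.5 and 5, other filters, scalings and variance models, sex as covariate, a replicate block and leaving out each sample.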

Additional observations from a re-analysis of the deposited data

How the results depend on the processing

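The direction of the 6 genes was fixed by how they were chosen, so only the size of their change is given, over 15 alternatives each and 14 for 3632451O06Rik and F830016B08Rik, which have values under 10. Log2 fold changes ran from 2.60 to 2.85 for Cpxm2, 2.30 to 2.67 for Tmem116, -4.42 to -3.32 for 3632451O06Rik (-3.32 with a pseudocount of 5), -3.65 to -2.38 for F830016B08Rik, -2.31 to -1.89 for Tmtc1 and -1.58 to -1.34 for Tfpi. Over all genes, the 178 calls became 603 with the replicate block, 574 with sex as covariate and 41 with 1 prior variance, where the call of Cpt1b was lost (adjusted p = 0.0563), and 42 to 329 when 1 sample was left out (42 without Cpt1bcKO sample 2, 329 without Cpt1bcKO sample 1). The share of calls that were higher was 42.1%, and 58.2% when samples were scaled by their summed values outside mitochondrial-encoded and rRNA genes, a scaling that moved the median of all genes to 0.11. Groups did not overlap in 2819 to 4252 genes with 1 sample left out. The 5 calls among neighbours and lists became 13 with the replicate block, 12 with sex, 0 with 1 prior variance, and 0 to 9 with 1 sample left out. Gm44022 passed with the replicate block (adjusted p = 0.0409) and in no other fit. Same-numbered samples were not treated as pairs in the main fit. The r of their deviations was 0.376, 0.255 and 0.0684, with 0.1 set as the r needed. For samples with different numbers it ran from -0.329 to 0.147. Sample 1 was the female of each group. List medians moved to -0.19 (10 or more in every sample) and 0.32 (scaling as above) for M14 carboxypeptidases, and by that scaling to -0.19 for interferon signalling and 0.02 for mTORC2 and gp130 signalling. With 1 sample left out they ran from -0.02 to 0.29 for M14 carboxypeptidases, -0.46 to -0.14 for interferon-inducible GTPases and -0.14 to 0.01 for mTORC2 and gp130 signalling. The causes were not tested. With 3 mice a group and under 20 reads in some Cpt1bcKO samples, the levels of 3632451O06Rik and F830016B08Rik there are imprecise.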
